A study of Mus musculus with 12 samples.

Results

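The 37 genes described here make or handle sterols and fatty acids, or respond to sterols through the liver X receptors (LXR). They were picked by name from the 34327 genes in the table, with earlier results of these data known. They fall into 6 groups by role: 7 genes of the mevalonate steps, 11 of the later sterol steps, 8 of sterol sensing and transport, 2 LXR receptors, 5 LXR targets and 4 genes of fatty acid synthesis. The cells were bone marrow-derived macrophages (BMDMs) of wild-type C57BL/6J mice, grown out in medium conditioned by L929 cells. They were kept for 24 hours on tissue culture plates, in gels of type I collagen at 2 mg/ml (low collagen) or in gels at 7 mg/ml (high collagen), each left untreated or given interleukin-4 (IL-4) at 20 ng/ml, which turns macrophages toward tissue repair. Polyadenylated RNA was sequenced from 2 libraries in each of the 6 conditions, 12 in all. The labels do not say whether the 2 libraries of a condition came from separate animals or cultures. The p-values rest on the spread between libraries of the same condition, pooled over all conditions in a fit, and that spread may be technical.

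Cells sense sterols in the membrane of the endoplasmic reticulum. When sterols are scarce, Scap carries the SREBP factors to the Golgi apparatus, where they are cleaved and become able to switch on the enzymes of sterol and fatty acid synthesis. When sterols are abundant, Insig proteins hold Scap back, while oxidised sterols bind LXR and switch on genes of cholesterol export. In macrophages, which take up the membranes of dead cells, export through Abca1, Abcg1 and Apoe is the main way to dispose of cholesterol.

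Stretches of DNA just upstream of 5 of these genes are shown to set sterol enzyme promoters, searched for the letters that SREBP and its partner NF-Y are known to read, beside that of an LXR target. The windows are from RefSeq on build GRCm38.p6, hold the 250 bases before the transcript start, read 5′ to 3′ on the strand of the gene, and lie outside the GENCODE gene. Capitals mark the NF-Y box CCAAT, or ATTGG when the box is on the other strand, and the sterol response element TCACNCCAC. The first 4 genes encode sterol enzymes and the last, Abca1, is an LXR target.
Hmgcs1, chr13:119690101-119690350, plus strand: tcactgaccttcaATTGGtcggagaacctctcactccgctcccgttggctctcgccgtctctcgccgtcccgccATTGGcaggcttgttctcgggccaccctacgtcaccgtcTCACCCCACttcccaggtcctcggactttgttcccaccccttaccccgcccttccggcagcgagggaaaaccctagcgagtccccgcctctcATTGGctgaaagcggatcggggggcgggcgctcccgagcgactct
Mvk, chr5:114444019-114444268, plus strand: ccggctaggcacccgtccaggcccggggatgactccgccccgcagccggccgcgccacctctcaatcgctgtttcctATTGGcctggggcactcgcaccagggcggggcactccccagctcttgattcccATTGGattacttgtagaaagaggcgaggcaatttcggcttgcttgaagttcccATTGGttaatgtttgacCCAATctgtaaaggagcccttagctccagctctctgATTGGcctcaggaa
Nsdhl, chrX:72918271-72918520, plus strand: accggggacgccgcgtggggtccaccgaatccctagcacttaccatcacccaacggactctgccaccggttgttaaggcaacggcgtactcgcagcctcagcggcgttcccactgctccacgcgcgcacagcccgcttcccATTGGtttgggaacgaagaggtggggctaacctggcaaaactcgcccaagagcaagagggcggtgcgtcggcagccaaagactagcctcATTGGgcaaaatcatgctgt
Sc5d, chr9:42264301-42264550, minus strand: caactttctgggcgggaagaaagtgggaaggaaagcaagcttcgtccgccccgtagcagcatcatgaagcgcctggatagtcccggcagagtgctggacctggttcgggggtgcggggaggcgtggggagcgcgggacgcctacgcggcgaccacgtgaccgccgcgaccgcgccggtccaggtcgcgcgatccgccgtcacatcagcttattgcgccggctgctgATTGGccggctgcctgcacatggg
Abca1, chr4:53159896-53160145, minus strand: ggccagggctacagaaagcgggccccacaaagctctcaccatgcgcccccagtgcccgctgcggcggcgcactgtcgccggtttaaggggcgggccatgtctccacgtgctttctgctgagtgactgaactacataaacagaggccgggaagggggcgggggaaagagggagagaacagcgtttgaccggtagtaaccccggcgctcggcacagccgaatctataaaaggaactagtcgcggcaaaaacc
The Hmgcs1 window held 3 NF-Y boxes and 1 sterol response element, which began 137 bases before the start. The Mvk window held 5 NF-Y boxes, the Nsdhl window 2 and the Sc5d window 1, while the Abca1 window held neither an NF-Y box nor a sterol response element. Hmgcs1 alone of the 5 held the sterol response element.

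A window of the same kind, with 50 bases after the start added, was at hand for 29 of the 37 genes (Npc1, Abcg1, Scd1, Stard4, Fdps, Scd2, Sqle and Fdft1 had none). Both strands were searched in windows of 27025 genes. The NF-Y box occurred in 14 of the 15 sterol enzyme genes with a window (93.3%, Acat2 lacked it) and in 41.1% of all genes. The GC box GGGCGG, which Sp1 reads, also occurred in 14 of these 15 genes, against 38.2% of all genes. Among the 6 LXR targets (Abca1, Abcg1, Mylip, Lpcat3, Apoe and Srebf1), 5 had a window, of which 3 (60.0%: Mylip, Lpcat3 and Srebf1) held the NF-Y box and 4 (80.0%) the GC box. The sterol response element was found in Hmgcs1 alone among the members and in 1.44% of all genes. For the LXR element, only the exact letters AGGTCA repeated after 4 bases were searched. Those letters were in none of the members' windows and in 0.0148% of all genes. Elements that differ from them were not searched. The count thus does not show that Abca1 or any other member lacks an LXR element. These counts describe letters in a window and not sites in use.

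Abundance is given in TPM (transcripts scaled to a fixed total per library), the deposited unit, which corrects for transcript length and allows genes to be compared with each other. Changes are differences of log2(TPM + 1) fitted with limma over all genes with a mean of at least 1 TPM, and a gene is called changed at an adjusted p under 0.2, the threshold the study applied to the gels. All 37 genes passed that filter. TPM carry no read depth, so none is known, and with 2 libraries against 2 an exact two-sided permutation test of a single gene cannot go below p = 0.333. Each library had between 11543 and 11910 genes at 1 TPM or more, and the 2 libraries of a condition correlated across genes at r between 0.980 and 0.985. All 7 macrophage markers were present, and their summed level was 17359 to 27564 TPM on plates and 30496 to 53125 TPM in gels. Most of that sum was Lyz2, at 13223 to 24116.5 TPM on plates and 25899.8 to 48901.1 TPM in gels. Single markers went different ways. Cd68 was at 2232 and 2282 TPM on untreated plates and 1418 and 1463 TPM in untreated high collagen. Adgre1 was at 374 and 382 TPM, and 685 and 692 TPM, in the same conditions. Itgam was at most 10.9 TPM. The 7 fibroblast markers summed to at most 0.833 TPM, the 4 dendritic cell markers to at most 1.70 TPM and the 4 lymphocyte markers to at most 0.657 TPM. Neutrophil markers summed to 4.08 to 9.16 TPM on plates and 12.8 to 31.1 TPM in gels, and eosinophil markers to 0.458 to 3.37 TPM, with 2 genes of each list reaching 1 TPM in any library. The part of these levels in the results below was not tested. In bulk RNA, fewer cells making a transcript and less of it per cell cannot be told apart.

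**Figure D1:**
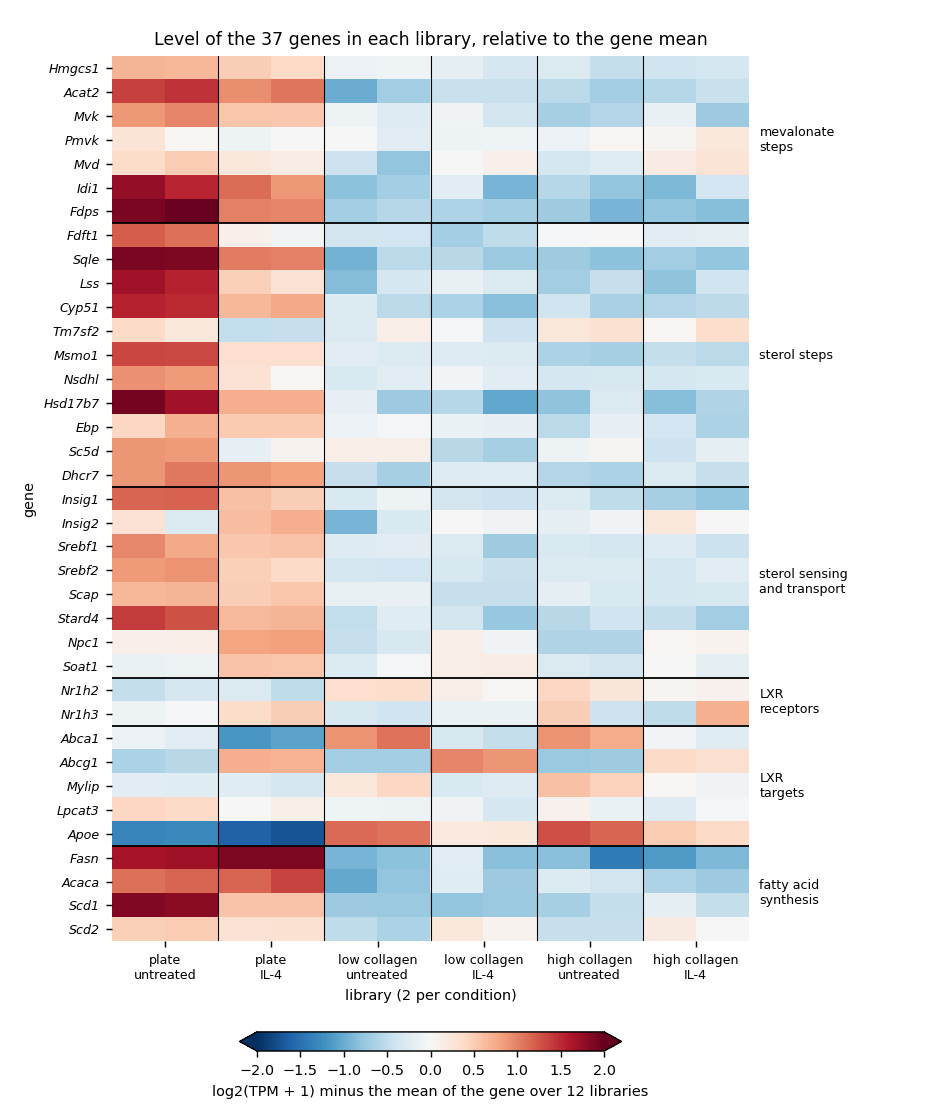
Level of the 37 genes (rows, grouped by role) in each of the 12 libraries (columns, 2 per condition), as log2(TPM + 1) minus the mean of the gene over all libraries; red is above and blue is below that mean. Most sterol and fatty acid genes are red on plates and blue in gels, whereas Apoe and Abca1 are bluest on plates with IL-4.

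The first comparison asks how macrophages embedded in a gel differed from those on a plate. Enzymes of sterol and fatty acid synthesis were lower in untreated gels of either collagen than on untreated plates, with called log2 fold changes from -0.19 (Pmvk) to -2.80 (Fasn), while Apoe, Abca1, Mylip and the receptor gene Nr1h2 were higher. In low collagen 30 of the 37 genes fell and 4 rose, where 44.3% of all genes tested fell and 28.5% rose. In high collagen 30 fell and 4 rose as well, where 45.5% of all genes fell and 28.0% rose. The 2 comparisons use the same plate libraries. Gels and plates also differed in handling, since cells were embedded in gels that floated free of the well, which cannot be told apart from the gel itself.

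The mevalonate steps turn acetyl-CoA into farnesyl diphosphate, and all 7 of their genes fell in both gels. Their median log2 fold change was -1.10 in low and -1.55 in high collagen, against -0.13 and -0.16 for all genes. Fdps, which makes farnesyl diphosphate, was at 167 and 177 TPM on untreated plates. Its gel values were 27.4 and 29.6 TPM in low collagen and 26.9 and 22.9 TPM in high collagen. No gel library came near a plate library, and the plate mean was 6.04 times the low collagen mean and 6.91 times the high collagen mean. The log2 fold change of Fdps was -2.55 ± 0.09 (SE, limma adjusted p = 3.08e-08) in low collagen and -2.74 ± 0.09 (adjusted p = 1.87e-08) in high collagen. Idi1, the isomerase before it, fell by 2.38 and 2.32 on the log2 scale. Acat2, which joins acetyl-CoA units, fell by 2.24 and 2.02. Mvk, the kinase that acts on mevalonate, fell by 1.10 and 1.55, and Mvd by 1.04 and 0.74. Hmgcs1, which makes the substrate of the rate-limiting step, fell less, by 0.78 and 1.06. The smallest changes were those of Pmvk, a kinase in the middle of the pathway, at -0.26 and -0.19. Both Pmvk calls were lost when single libraries were left out, where the values ran from -0.37 to -0.14 and from -0.30 to -0.07, and both were lost under rescaling by median ratios.

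The later steps turn farnesyl diphosphate into cholesterol, and 11 of 11 genes fell in low and 10 of 11 in high collagen, with medians of -1.54 and -1.57. Sqle, the epoxidase that commits squalene to sterols, was at 62.4 and 62.0 TPM on untreated plates. It was at 7.91 and 10.9 TPM in low collagen and at 9.53 and 8.77 TPM in high collagen. The gel values of Sqle lay far below both plate values, with log2 fold changes of -2.62 ± 0.13 (adjusted p = 2.68e-07) and -2.64 ± 0.13 (adjusted p = 2.24e-07). Lss, which closes the ring system to lanosterol, was at 34.9 and 31.3 TPM on plates, 5.12 and 7.88 TPM in low collagen and 5.90 and 7.06 TPM in high collagen. Hsd17b7, a ketoreductase, was at 12.6 and 10.5 TPM on plates, 2.22 and 1.20 TPM in low collagen and 1.08 and 1.97 TPM in high collagen. Both genes were thus lower in every gel library, with log2 fold changes of -2.21 and -2.24 in low collagen. The C4-methyl oxidase Msmo1 was at 112 and 111 TPM on plates, 37.5 and 36.0 TPM in low collagen and 28.0 and 27.3 TPM in high collagen. Of the other enzymes, Cyp51, which removes a methyl group from lanosterol, fell by 1.92 and 2.04, Dhcr7, the last reductase, by 1.53 and 1.57, and Nsdhl, a decarboxylase, by 1.15 and 1.22. Tm7sf2, a sterol reductase, was the exception of the group. It changed by -0.38 in low collagen, a call lost without 2 of the 4 libraries (range -0.60 to -0.17) and under rescaling, and by -0.04 in high collagen (adjusted p = 0.87).

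Of the 8 genes that sense and move sterols, 7 fell in low and 7 in high collagen, with medians of -0.96 and -1.03. The 2 SREBP genes themselves were lower in gels: Srebf2, whose product drives the sterol enzymes, fell by 1.25 and 1.15 in low and high collagen, and Srebf1 by 1.09 and 1.18. The escort gene Scap fell by 0.82 and 0.92, and Stard4, which carries cholesterol through the cytosol, by 1.70 and 1.81. Insig1, an SREBP target that restrains Scap, was at 84.0 and 84.7 TPM on plates, 29.6 and 34.3 TPM in low collagen and 30.5 and 25.6 TPM in high collagen. Its relative Insig2 fell by 0.61 in low collagen, a call lost without 2 of the 4 libraries (range -0.93 to -0.30), and showed -0.13 (adjusted p = 0.624) in high collagen. Npc1, which lets cholesterol out of lysosomes, fell by 0.51 and 0.73. Soat1, which esterifies cholesterol for storage, showed -0.04 (adjusted p = 0.724) in low collagen and -0.20 in high collagen, a call lost without 1 of the 4 libraries (range -0.24 to -0.16) and under rescaling.

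The LXR side ran the other way for 3 of 5 targets. Apoe, the secreted apolipoprotein that accepts exported cholesterol, was the most abundant of the 37 genes in every condition. It stood at 2777 and 2836 TPM on untreated plates, 15171 and 14664 TPM in low collagen and 17029 and 15482 TPM in high collagen. The lowest gel value of Apoe was thus far above the plates, a rise of 5.31-fold in low and 5.79-fold in high collagen, or 2.41 ± 0.06 and 2.53 ± 0.06 on the log2 scale (adjusted p = 8.16e-09 and 6.37e-09). Abca1, the transporter that loads cholesterol onto apolipoprotein, was at 78.0 and 72.8 TPM on plates, 158 and 180 TPM in low collagen and 159 and 142 TPM in high collagen. Its groups did not overlap and its mean rose 2.24-fold and 1.99-fold. Mylip, the ubiquitin ligase by which LXR lowers lipoprotein uptake, rose by 0.53 and 0.74. Lpcat3, which puts polyunsaturated chains into phospholipids, fell by 0.49 and 0.42. Abcg1, which exports cholesterol to lipoprotein particles, was at 44.2 and 46.2 TPM on plates, 42.4 and 42.8 TPM in low collagen and 40.6 and 41.5 TPM in high collagen. The difference of Abcg1 was -0.08 (adjusted p = 0.265) in low collagen and -0.14 in high collagen, where the call was lost without 2 of the 4 libraries (range -0.17 to -0.10) and the sign turned under rescaling, to 0.04. Of the receptors, Nr1h2 (LXRβ) rose by 0.75 and 0.73, and Nr1h3 (LXRα) showed -0.29 and 0.11 and was called in none of the 12 comparisons. Its libraries scattered widely, for instance 8.29 and 3.91 TPM in untreated high collagen.

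All 4 genes of fatty acid synthesis fell. Fasn, the fatty acid synthase, was at 52.6 and 53.7 TPM on plates, 7.89 and 8.55 TPM in low collagen and 8.52 and 5.33 TPM in high collagen, with changes of -2.56 ± 0.22 (adjusted p = 5.94e-06) and -2.80 ± 0.22 (adjusted p = 2.96e-06). Scd1, a stearoyl-CoA desaturase, was at 10.4 and 10.1 TPM on plates, 0.915 and 0.901 TPM in low collagen and 1.01 and 1.27 TPM in high collagen. The plate mean of Scd1 was 11.3 times the low collagen mean, the largest ratio among the members. Its paralog Scd2 was much more abundant, at 171 and 174 TPM on plates, 85.4 and 78.8 TPM in low collagen and 88.9 and 88.3 TPM in high collagen. Acaca, which makes malonyl-CoA, was at 19.1 and 20.0 TPM on plates, 3.64 and 4.42 TPM in low collagen and 6.76 and 6.31 TPM in high collagen. The gel values of Scd2 and Acaca lay below both plate values, with log2 fold changes of -1.06 and -2.04 in low collagen.

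**Figure D2:**
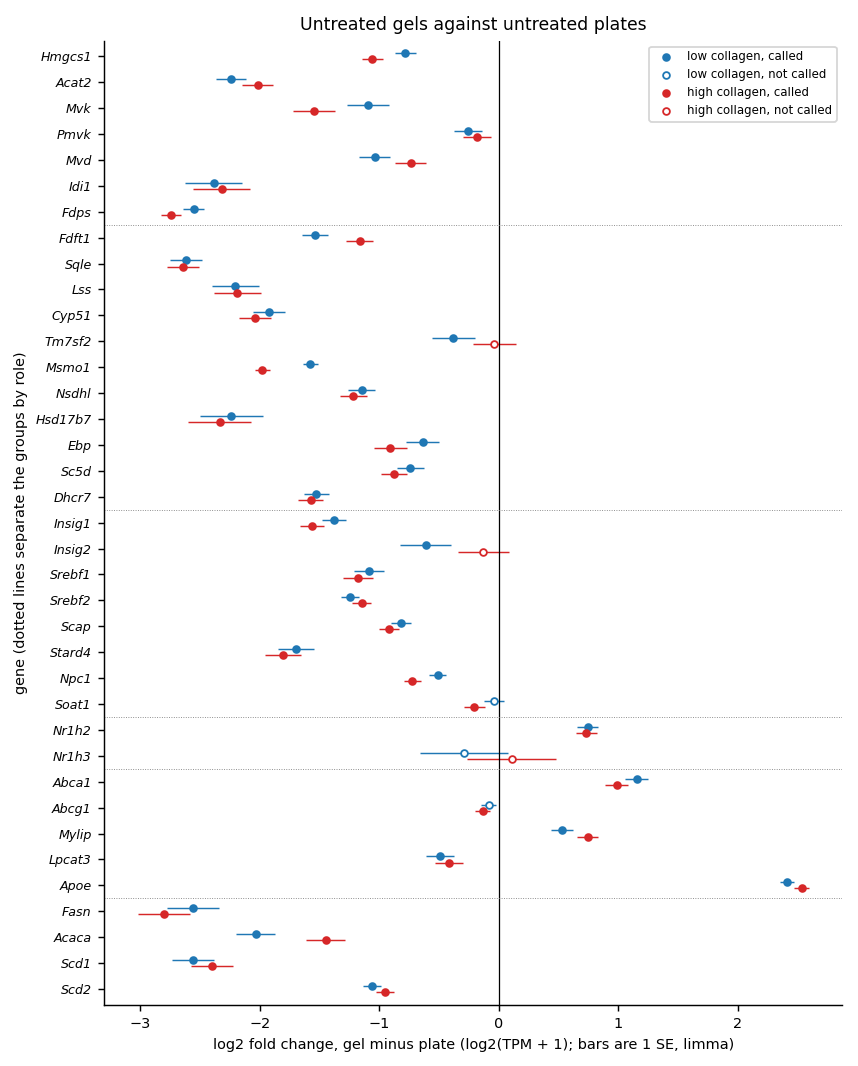
Log2 fold change of each gene in untreated gels against untreated plates (x axis, difference of log2(TPM + 1)), with low collagen in blue and high collagen in red; bars are 1 SE from limma, filled points are called at an adjusted p under 0.2. The sterol and fatty acid enzymes sit left of 0 down to -2.80, and Apoe, Abca1, Nr1h2 and Mylip sit right of it.

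Rescaling the libraries by median ratios moved the median of all genes from -0.13 in the low collagen comparison and from -0.16 in the high collagen comparison to near 0, and left 28 and 27 genes lower and 4 and 4 higher. The shares of all genes called after rescaling were not counted, here or below, so rescaled counts have no background to be read against. After rescaling the median was -1.38 in low and -1.39 in high collagen for the 20 SREBP targets (the mevalonate and sterol steps with Insig1 and Stard4).

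With IL-4 the 20 SREBP targets lay nearer to the plates, with a median of -0.74 in low and -1.01 in high collagen, against -1.53 and -1.57 without it (the difference was tested as a response to IL-4). In low collagen with IL-4, 28 genes were lower and 4 higher than on plates with IL-4, where 52.2% of all genes were lower and 22.8% higher. In high collagen with IL-4, 29 were lower and 5 higher, where 48.1% of all genes were lower and 26.5% higher. Rescaling, which moved the median of all genes from -0.28 and -0.20 to near 0, gave 24 lower and 8 higher in low collagen and 24 lower and 7 higher in high collagen. Fdps was at 90.7 and 88.6 TPM on plates with IL-4, 28.7 and 27.3 TPM in low collagen and 25.3 and 24.3 TPM in high collagen, or -1.65 ± 0.09 and -1.81 ± 0.09 on the log2 scale. Sqle was at 34.2 and 33.7 TPM on plates with IL-4, 10.7 and 9.30 TPM in low and 9.61 and 9.05 TPM in high collagen. The gel levels of both enzymes with IL-4 were close to those without it. Their plate levels with IL-4 lay above the gels and below the untreated plates. Fasn, at 60.4 and 60.6 TPM on plates with IL-4 against 13.5 and 8.48 TPM in low and 6.73 and 8.10 TPM in high collagen, kept the widest gap at -2.39 and -2.87. Acaca was at 20.0 and 22.9 TPM on plates with IL-4, 6.90 and 4.65 TPM in low collagen and 5.13 and 4.65 TPM in high collagen. Apoe was at 2262 and 2106 TPM on plates with IL-4, 7944 and 7992 TPM in low collagen and 9886 and 9024 TPM in high collagen, which is 1.87 and 2.11 higher on the log2 scale. The calls of Lpcat3 and Scd2 in both gels, of Nsdhl in low collagen and of Fdft1, Sc5d and Insig2 in high collagen were lost when a library was left out, and their values then ran between -0.66 and -0.07. Under rescaling the signs of Lpcat3 (0.03 in both) and Scd2 (0.16 and 0.02) turned. Over both treatments, 22 of the 37 genes had all 8 gel libraries below all 4 plate libraries, against 31.2% of all genes tested. Apoe and Nr1h2 had all 8 above, against 12.6% of all genes.

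**Figure D3:**
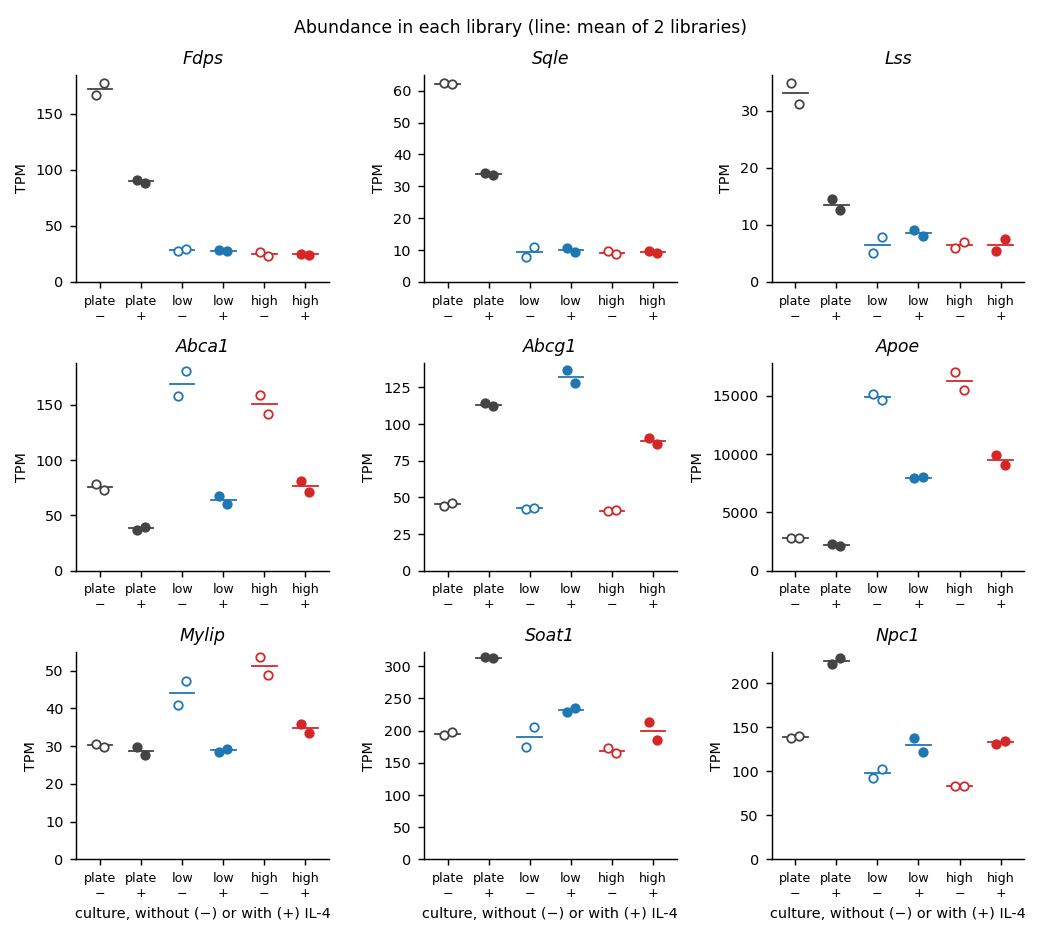
TPM of 9 genes in each library (points) with the mean of 2 libraries (line), on plates, in low collagen and in high collagen, without (open) and with (filled) IL-4; each panel starts at 0. Fdps, Sqle and Lss are highest on untreated plates, Apoe and Abca1 in untreated gels, and Abcg1 is raised by IL-4 in all 3 cultures.

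The second comparison asks what IL-4 did. On plates it lowered sterol synthesis genes across the pathway: 24 of the 37 genes fell and 4 rose, where 24.0% of all genes fell and 14.7% rose. The group of the later sterol steps led, with 9 of 11 genes lower and a median of -0.85 against -0.06 for all genes. Lss was at 14.5 and 12.6 TPM with IL-4 against 34.9 and 31.3 TPM without it, a change of -1.23 ± 0.20 (adjusted p = 0.00148). Fdft1, the squalene synthase, went from 26.2 and 24.2 TPM to 11.6 and 10.2 TPM, or -1.14 ± 0.11 (adjusted p = 5.26e-05). Hsd17b7 went to 4.96 and 5.00 TPM, or -1.07 ± 0.26 (adjusted p = 0.0159). Msmo1 went to 56.0 and 55.9 TPM, a ratio of 0.500 and a change of -0.99 ± 0.06 (adjusted p = 3.31e-06). No library with IL-4 overlapped an untreated one for any of these 4 enzymes. Scd1 fell from its untreated values to 3.72 TPM in both libraries, or -1.25 ± 0.18 (adjusted p = 0.000624). The mevalonate steps moved less, with 6 of 7 genes lower and a median of -0.37. Fdps led them at -0.93, while the calls of Hmgcs1, Mvk, Mvd, Idi1 and Acat2 were lost when single plate libraries were left out, with values from -0.77 to -0.18. The same held for Srebf1 (-0.40 to -0.20), Lpcat3 (-0.39 to -0.27), Scd2 (-0.20 to -0.18) and Insig2 (0.38 to 0.97). Ebp and Dhcr7, which act near the end of the pathway, showed -0.03 (adjusted p = 0.896) and -0.12 (adjusted p = 0.465). The 4 genes that rose were Abcg1 by 1.31, Npc1 by 0.69, Soat1 by 0.68 and Insig2 by 0.68.

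In gels, before rescaling, the same treatment changed few sterol enzymes and 4 of the 5 LXR targets (Lpcat3, at -0.11 in low and -0.12 in high collagen, was not called). In low collagen 9 genes rose and 8 fell, where 13.2% of all genes rose and 40.4% fell. In high collagen 5 rose and 6 fell, where 11.5% of all genes rose and 22.8% fell. Rescaling moved the median of all genes from -0.19 in low and from -0.10 in high collagen to near 0, and turned these counts into 15 higher and 4 lower, and 7 higher and 3 lower. Of the 18 enzymes of the mevalonate and sterol steps, Mvd, Acat2 and Dhcr7 rose and Cyp51 and Sc5d fell in low collagen, and Mvd rose and Sc5d fell in high collagen. Rescaling gave more rises among the enzymes. In low collagen 2 of the 7 mevalonate genes then rose and 0 fell, and 5 of the 11 sterol genes rose and 1 fell. In high collagen 1 of the 7 and 2 of the 11 then rose and 0 fell. Mvd, the decarboxylase of the pathway, went from 14.3 and 10.7 TPM to 19.4 and 20.9 TPM in low collagen and from 14.9 and 16.2 TPM to 21.9 and 23.6 TPM in high collagen. Its log2 fold change was 0.66 ± 0.14 (adjusted p = 0.0108) in low and 0.52 ± 0.14 (adjusted p = 0.042) in high collagen. Sc5d, the desaturase, was at 24.8 and 24.5 TPM without and 15 and 13.9 TPM with IL-4 in low collagen. In high collagen it was at 21 and 23.6 TPM without and 16.7 and 19.6 TPM with IL-4, and on plates at 42.2 and 41.3 TPM without and 20.0 and 23.6 TPM with IL-4. Sc5d thus fell in all 3 cultures, by 0.73, 0.28 and 0.91, although the call in high collagen was lost without 2 of the 4 libraries (range -0.39 to -0.18) and under rescaling. Fdps showed -0.02 ± 0.10 in low collagen, its treated and untreated libraries overlapped in high collagen, and Sqle showed 0.09 ± 0.16 and 0.03 ± 0.16, none of them called. Among the genes of sterol sensing, Insig2 rose by 0.58 and Scap fell by 0.31 in low collagen, the latter a call lost under rescaling.

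The called LXR targets went both ways under IL-4. Abcg1 rose in all 3 cultures, from 42.4 and 42.8 TPM to 137 and 128 TPM in low collagen, from 40.6 and 41.5 TPM to 90.4 and 86.1 TPM in high collagen and from 44.2 and 46.2 TPM to 114 and 112 TPM on plates. No treated library overlapped an untreated one, and the changes were 1.61 ± 0.07 (adjusted p = 3.88e-06), 1.09 ± 0.07 (adjusted p = 4.74e-05) and 1.31 ± 0.06 (adjusted p = 4.48e-07). Abca1, its partner in export, fell in all 3. With IL-4 it was at 67.1 and 60.6 TPM in low collagen, 81.4 and 71.2 TPM in high collagen and 37.2 and 39.6 TPM on plates, below every untreated library of the same culture. The changes of Abca1 were -1.39 ± 0.11 (adjusted p = 7.23e-05), -0.97 ± 0.11 (adjusted p = 0.000732) and -0.95 ± 0.10 (adjusted p = 8.54e-05). Apoe fell by 0.90 in low collagen, 0.78 in high collagen and 0.36 on plates. Mylip fell by 0.59 and 0.55 in the gels and showed -0.07 (adjusted p = 0.654) on plates. Nr1h2 fell by 0.27 and 0.25 in the gels, calls that were lost under rescaling and, in high collagen, without 2 of the 4 libraries (range -0.34 to -0.17).

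Npc1 and Soat1, which handle cholesterol inside the cell, rose in all 3 cultures. Npc1 was at 92.7 and 102 TPM without and 138 and 122 TPM with IL-4 in low collagen, and at 83.7 TPM in both libraries without and 131 and 134 TPM with IL-4 in high collagen. On plates it went from 138 and 140 TPM to 221 and 228 TPM. Its changes of 0.41 ± 0.08 (adjusted p = 0.00853), 0.66 ± 0.08 (adjusted p = 0.00147) and 0.69 ± 0.07 (adjusted p = 9.19e-05) kept the groups apart in each culture. Soat1 rose by 0.29, 0.23 and 0.68, and the gel calls were lost without 1 library in low collagen (range 0.17 to 0.40) and without 3 of 4 in high collagen (range 0.14 to 0.33). Scd2 was at 144 and 128 TPM with IL-4 in low collagen and 138 and 123 TPM in high collagen, above every untreated gel library, and at 150 and 152 TPM on plates. It rose by 0.72 ± 0.09 and 0.55 ± 0.09 in the gels and fell by 0.19 on plates. Of the genes called higher, 5 were called in both gels (5 of 9 in low and 5 of 5 in high collagen: Abcg1, Mvd, Npc1, Scd2 and Soat1), and Abcg1, Npc1 and Soat1 on plates too. Of those called lower, Abca1, Apoe, Mylip, Nr1h2 and Sc5d were called in both gels (5 of 8 and 5 of 6), and Abca1, Apoe and Sc5d on plates too. The other calls in low collagen were weaker, and those of Cyp51, Dhcr7, Acat2, Srebf1 and Acaca were lost when a library was left out, with values between -0.47 and -0.06 for Cyp51 and Srebf1 and between 0.17 and 0.66 for the others. In high collagen the same held for Insig1 (range -0.45 to -0.20), which was at 30.5 and 25.6 TPM without and 22.9 and 21.2 TPM with IL-4.

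**Figure D4:**
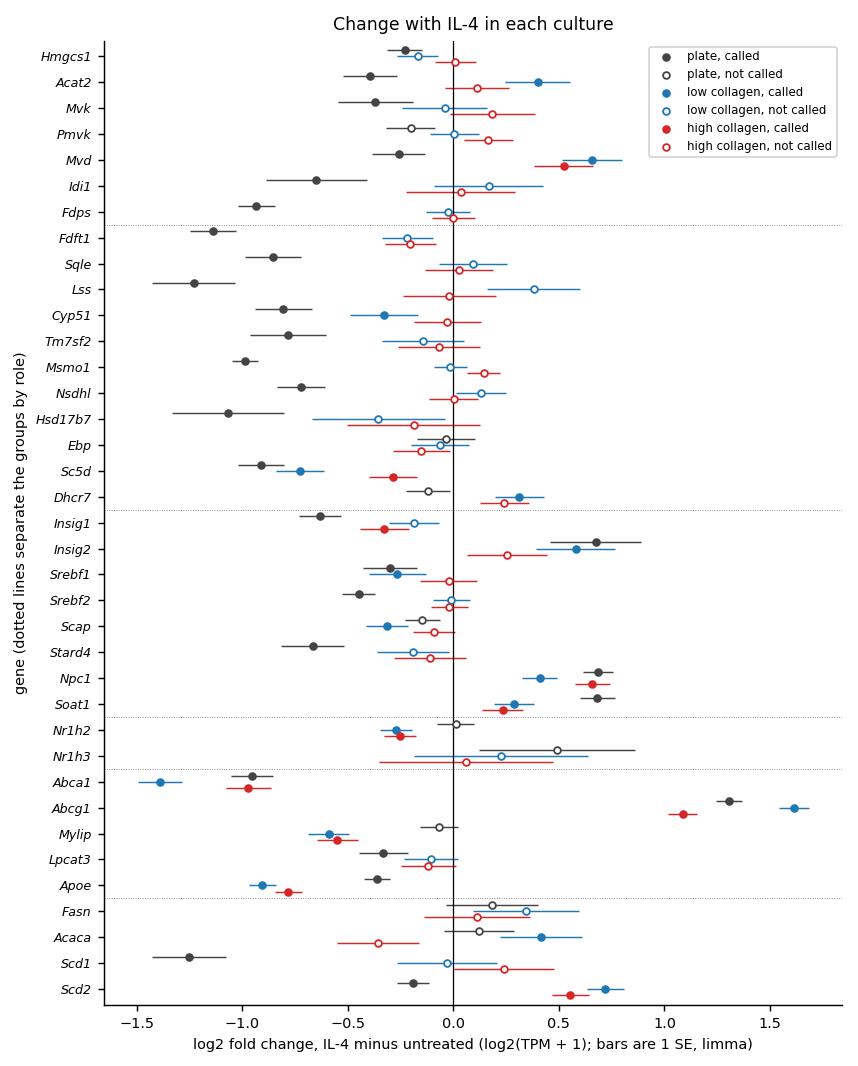
Log2 fold change of each gene with IL-4 (x axis, IL-4 minus untreated, difference of log2(TPM + 1)) on plates (dark grey), in low collagen (blue) and in high collagen (red); bars are 1 SE from limma and filled points are called at an adjusted p under 0.2. On plates most sterol enzymes are filled points left of 0, with Lss at -1.23, and in gels most are open points near 0, while Abcg1 lies between 1.09 and 1.61 and Abca1 between -1.39 and -0.95 in all 3 cultures.

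Whether IL-4 acted differently in gels than on plates was tested as a difference of the 2 responses. Against plates, the response in low collagen was higher for 18 genes and lower for 6, where 9.3% of all genes had a higher and 18.7% a lower response. In high collagen it was higher for 16 and lower for 4, where 8.66% of all genes had a higher and 8.61% a lower response. Rescaling gave 19 higher and 2 lower, and 18 higher and 3 lower. Both differences use the same plate libraries. Sterol and fatty acid enzymes were 14 of the 18 higher responses in low and 14 of the 16 in high collagen. The others were Insig1, Srebf2, Stard4 and Abcg1 in low and Srebf2 and Stard4 in high collagen. The response was higher for Lss by 1.61 ± 0.28 (adjusted p = 0.00648) in low and 1.21 ± 0.28 (adjusted p = 0.0324) in high collagen, and Scd1 by 1.22 ± 0.25 (adjusted p = 0.0138) and 1.49 ± 0.25 (adjusted p = 0.00669). Msmo1, at 36.7 and 36.1 TPM with IL-4 in low collagen and 31.4 and 29.9 TPM in high collagen, differed by 0.97 ± 0.09 and 1.13 ± 0.09. Fdft1 differed by 0.92 and 0.94, Fdps by 0.91 and 0.93 and Sqle by 0.95 and 0.88. Each of these enzymes fell on plates, and none of the 6 was called in either gel. After rescaling, Lss (0.57, limma adjusted p = 0.069), Sqle (0.29, adjusted p = 0.170) and Msmo1 (0.20, adjusted p = 0.146) passed the threshold as rises with IL-4 in low collagen, and Msmo1 (0.25, adjusted p = 0.107) did so in high collagen. Lss was at 9.11 and 8.13 TPM with IL-4 in low collagen and 5.39 and 7.48 TPM in high collagen, and Scd1 at 0.840 and 0.901 TPM and at 1.79 and 1.29 TPM. Scd1 was near the pseudocount of 1 TPM in gels, where log2(TPM + 1) understates a change.

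The lower responses in gels were those of Apoe (-0.54 in low and -0.42 in high collagen), Mylip (-0.52 and -0.48) and Soat1 (-0.39 and -0.45, the first lost under rescaling) in both, and of Abca1, Nr1h2 and Npc1 in low collagen and Abcg1 in high collagen. The Abca1 difference of -0.43 was lost without 4 of the 8 libraries (range -0.53 to -0.34) and under rescaling. The Npc1 difference of -0.28 (range -0.37 to -0.18) was lost in the same ways, as was that of Nr1h2. Abcg1 responded more in low collagen than on plates, by 0.31 ± 0.09 (adjusted p = 0.0531). In high collagen it responded less than on plates, by -0.22 ± 0.09 (adjusted p = 0.183), a call lost when any of the 8 libraries was left out (range -0.26 to -0.19). Calls of Idi1, Cyp51, Tm7sf2, Dhcr7, Insig1 and Stard4 in low collagen and of Tm7sf2, Dhcr7, Acat2 and Stard4 in high collagen were also lost in at least 1 such fit, and 15 members kept their call in every fit in each of the 2 comparisons.

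The third comparison asks what collagen concentration did within gels. Without IL-4, 1 gene fell and 0 rose, where 4.79% of all genes fell and 3.23% rose. At an unadjusted p under 0.05, 3 members were higher and 3 lower. The share of all genes at that threshold was not counted, so these counts have no background to be read against. The called gene was Msmo1, at -0.40 ± 0.08 (limma adjusted p = 0.0709). Its values of 28.0 and 27.3 TPM in high collagen lay below 37.5 and 36.0 TPM in low collagen. Its call was lost without either high collagen library (values -0.42 and -0.38), leaving 0 calls, whereas leaving out either low collagen library gave 2. Rescaling added Acaca as 1 higher gene.

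With IL-4, 4 genes were higher in high collagen and 4 lower, where 14.1% of all genes were higher and 6.99% lower, so that the count called was close to the background. Rescaling gave 1 higher and 7 lower. Abcg1 showed -0.58 ± 0.07 (adjusted p = 0.00986), with 90.4 and 86.1 TPM against 137 and 128 TPM in low collagen, and was the single call that no left-out library removed. Fdft1, at 8.97 and 9.26 TPM in high and 6.26 and 7.25 TPM in low collagen with IL-4, was higher by 0.39 ± 0.12 (adjusted p = 0.115). Ebp, an isomerase, at 33.2 and 27.7 TPM against 39.6 and 38.7 TPM, showed -0.36 ± 0.14 (adjusted p = 0.174). Insig1, at 22.9 and 21.2 TPM against 28.5 and 27.3 TPM, showed -0.32 ± 0.12 (adjusted p = 0.155). Sc5d was higher by 0.30, Mylip by 0.26 and Apoe by 0.25 on the log2 scale, calls that were lost under rescaling, and Msmo1 showed -0.24. The count of 8 fell to 3 and 2 without the first and the second high collagen library with IL-4, and to 2 and 1 without the first and the second low collagen library with IL-4.

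The response to IL-4 was not shown to differ between the gels for any member: 0 genes were called higher and 0 lower in the interaction of collagen with IL-4, where 0.194% and 0.169% of all genes were called by limma. At an unadjusted p under 0.05, 2 members had a higher and 2 a lower response in high collagen, and the share of all genes was not counted. Abcg1 was nearest at -0.53 ± 0.10 (limma adjusted p = 0.201). It was called without the filter on low values (adjusted p = 0.151), after rescaling (adjusted p = 0.154) and with the plate libraries in the fit (adjusted p = 0.0663), and in each of these 3 fits it was the single member called.

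The SREBP and LXR targets were also set against each other. The mean log2(TPM + 1) of the 20 SREBP targets was 5.33 and 5.30 on untreated plates and 4.68 and 4.65 on plates with IL-4, and lay between 3.72 and 3.87 in all 8 gel libraries. The mean of the 6 LXR targets was 6.81 and 6.76 on untreated plates and 6.66 and 6.67 on plates with IL-4. In gels it was 7.15 to 7.26 without and 6.84 to 7.01 with IL-4. The SREBP mean was thus lower in each gel library than in each plate library, and the LXR mean was higher, and in both gels the LXR mean was lower with IL-4 than without. The median level of the 6 LXR targets in a library went the other way, at 5.90 to 6.16 on plates and 5.47 to 5.88 in gels. In both gels it was higher with IL-4 than without, with no overlap (in high collagen 5.88 in both libraries with IL-4 against 5.73 and 5.55 without). Mean and median level thus disagree on the direction of the LXR list, in which Apoe is far more abundant than the other genes and changed most between gel and plate. The median of the 6 log2 fold changes went with the mean level. It was 0.22 in low collagen (3 called higher, 2 lower) and 0.30 in high collagen (3 and 3), untreated against plates. For IL-4 against untreated in the same gel it was -0.43 in low collagen (1 called higher, 4 lower). In high collagen that response was -0.33 (1 and 3). Gels against plates, both with IL-4, gave 0.11 in low (3 called higher, 2 lower) and 0.03 in high collagen (3 and 3). The SREBP median was 4.50 to 5.20 on plates and 3.42 to 3.71 in gels. The SREBP mean minus the LXR mean was -1.48 and -1.46 on untreated plates, -1.99 and -2.02 on plates with IL-4, and -3.51 to -3.11 in gels. No p is given for these means, since the genes were chosen with results of these data known. Srebf1 answers to both systems, and Abcg1 moved against the other LXR targets under IL-4.

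**Figure D5:**
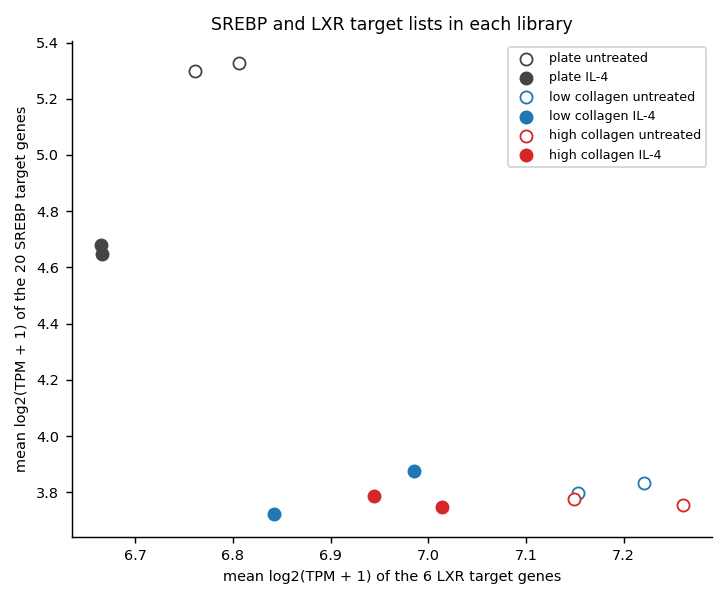
Mean log2(TPM + 1) of 20 SREBP target genes (y axis) against that of 6 LXR target genes (x axis) in each of the 12 libraries, without (open) and with (filled) IL-4, on plates (dark grey), in low collagen (blue) and in high collagen (red). Neither axis starts at 0; the 8 gel libraries lie between 3.72 and 3.87 on the y axis and the 4 plate libraries at 4.65 or above.

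The levels themselves kept a similar order. Apoe was first in all 6 conditions and Soat1 second. Behind them on untreated plates came Scd2, Fdps and Npc1 at 172, 172 and 139 TPM, of which the first 2 did not differ beyond their spread. In untreated low collagen Abca1 came next at 169 ± 16.2 TPM (mean ± SD, n = 2), close to Soat1 at 191 ± 21.6 TPM, and then Nr1h2 at 131 ± 1.05 TPM. In untreated high collagen the same 2 genes followed at 150 and 130 TPM. The low end was held by Scd1, Hsd17b7 and Nr1h3 on plates and by Scd1 and Hsd17b7 in gels, where their means were 0.870 to 1.71 TPM. Some levels rest on sequence that other genes share, which can divide reads: 43.7% of the 31-base words of Acat2 occur in another gene, mainly Acat3. The share was 33.4% for Acaca, 27.9% for Fdps, 18.8% for Idi1, 14.3% for Fdft1, 12.9% for Tm7sf2, 8.14% for Scd1 and 6.81% for Scd2, and at most 3.46% for the others.

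Other genes of these systems, outside the 37, were counted from 2 further lists. Of 14 other SREBP targets, 12 fell and 1 rose in untreated low collagen against plates, with a median of -1.01, and 12 fell and 1 rose in high collagen (44.3% of all genes fell and 28.5% rose in the first, 45.5% and 28.0% in the second). Fads2, the delta-6 desaturase, was at 65.8 and 74.5 TPM on untreated plates and at 4.71 and 6.85 TPM in untreated low collagen, a log2 fold change of -3.41. Acss2, an acetyl-CoA synthetase, was the gene that rose, by 1.39 and 1.89. With IL-4 on plates 11 of the 14 fell and 0 rose (24.0% and 14.7% of all genes), with Fads2 at -1.96. In low collagen 8 fell and 1 rose with IL-4 (40.4% and 13.2% of all genes) and in high collagen 5 fell and 1 rose (22.8% and 11.5%). Of 10 other genes of the LXR system tested, 8 rose and 1 fell in each untreated gel against plates. The 10 include Rxra and Rxrb, which encode partner receptors of LXR rather than LXR targets. Both were among the 8, at 0.40 and 0.49 for Rxra and 1.06 and 1.23 for Rxrb in low and high collagen. Pltp, which transfers phospholipid between lipoproteins, went from 112 and 109 TPM on untreated plates to 1266 and 1144 TPM in untreated low collagen. Apoc1 was listed at 0 on all 4 plate libraries and at 6.00 and 13 TPM in untreated low collagen. The gene that fell was Lpl, lipoprotein lipase, at -2.52 and -2.69. With IL-4, 9 of the 10 fell and 1 rose in low collagen and 7 fell and 1 rose in high collagen, where 40.4% and 22.8% of all genes fell. After rescaling 5 fell and 1 rose in each gel. Before rescaling, Rxrb was among the genes that fell in both gels, and Rxra in low collagen. On plates 2 fell and 4 rose with IL-4, Rxra among the 4, where 24.0% of all genes fell and 14.7% rose.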

How the data were processed

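Stranded polyadenylated RNA libraries, 2 for each of 6 conditions, were read in pairs. The authors quantified transcripts with kallisto 0.46.1 on the Ensembl GRCm38 annotation and deposited a table of TPM per gene. How transcripts were summed to genes is not given in the sources used here. TPM keep no read depth, so no interval or floor from counts is given. The table held 34456 lines, of which 129 repeated a gene and were collapsed to leave 34327 genes.

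The 37 genes, the lists and the tests were chosen with earlier results of these data known. Values were taken as log2(TPM + 1) after a filter at a mean of 1 TPM. Models with 1 mean per condition were fitted with limma 3.58.1 (R 4.3.3, trended prior) over 11852 genes in the 8 gel libraries for comparisons within gels, and over 11865 genes in all 12 libraries for comparisons with plates. Adjusted p-values are Benjamini-Hochberg over all genes tested, and 0.2 was the threshold. In each comparison up to 5 called genes with the largest absolute log2 fold change were given with their values, and every other member by a value or a count. On simulated data with 200 changed genes, 99% of 4-fold and 83% of 2-fold changes were called for IL-4 in low collagen (11852 genes, 18.02% of calls false). For untreated low collagen against plates the shares were 99% and 91% (11865 genes, 16.3% of calls false). With no gene changed there were 0 calls in either simulation. The simulated noise was normal and independent, with the residual spread of the fit. Genes at levels as low as those of Scd1 and Hsd17b7 in gels were not among those changed. In the data far more genes were called (40.4% lower and 13.2% higher with IL-4 in low collagen), so these shares need not hold for them.

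Alternatives were a pseudocount of 0.1, no filter, rescaling by median ratios, a replicate block, an adjusted p under 0.05, all 12 libraries in the fit, only the compared libraries in the fit, and each library left out in turn. Promoter windows (250 bases before and 50 after the start) were from RefSeq on GRCm38.p6, and gene bounds from GENCODE. Tables were handled with Python 3.11.15, pandas 2.3.3 and numpy 2.4.6, and figures drawn with matplotlib 3.10.9.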

Additional observations from a re-analysis of the deposited data

Results flagged for a closer look

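Differences of the IL-4 response between gels and plates passed the limma test for 24 of the 37 genes in low collagen and for 20 in high collagen, at an adjusted p under 0.2. All values here are the log2 response in the gel minus that on plates. In low collagen the response was higher for Lss (1.61), Scd1 (1.22), Msmo1 (0.97), Sqle (0.95), Fdft1 (0.92), Fdps (0.91) and Abcg1 (0.31). It was lower there for Apoe (-0.54), Mylip (-0.52), Abca1 (-0.43), Soat1 (-0.39) and Npc1 (-0.28). In high collagen it was higher for Scd1 (1.49), Lss (1.21), Msmo1 (1.13), Fdft1 (0.94), Fdps (0.93) and Sqle (0.88). It was lower there for Mylip (-0.48), Soat1 (-0.45), Apoe (-0.42) and Abcg1 (-0.22). The Abcg1 call in high collagen was lost when any of the 8 libraries was left out. The Abca1 and Npc1 calls in low collagen were lost without some single libraries and under rescaling. The Soat1 call in low collagen was lost under rescaling.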

How the results depend on the processing

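With 2 libraries per condition and no read depth in TPM, small changes are the least certain. Of 243 called values, 27 lost their call under rescaling, 23 without the filter, 55 at an adjusted p under 0.05, 10 with the replicate block and 3 with the smaller pseudocount. When at least 1 library was left out, 55 lost it. All 12 libraries in the fit applied only to the 37 calls within gels, of which 0 were lost. Only the compared libraries in the fit applied to the comparisons that involve plates, where 3 calls were lost. The 5 that changed sign did so under rescaling: Abcg1 in untreated high collagen against plates (0.0381), and with IL-4 against plates Lpcat3 (0.0347 in low and 0.0252 in high collagen) and Scd2 (0.16 and 0.0229). At an adjusted p under 0.05 the counts of called members were 10 for IL-4 in low and 7 in high collagen, 0 and 1 for high against low collagen without and with IL-4, and 13 and 13 for the response in low and in high collagen against plates. Shares of all genes were not counted at this threshold or under the other alternatives, so the counts of members given here have no background. For high against low collagen without IL-4, rescaling gave 2 calls, all 12 libraries 5, and left-out libraries 0 to 2. With IL-4, no filter gave 3, the replicate block 4, and left-out libraries 1 to 3. For the interaction, no filter, rescaling and all 12 libraries gave 1 call each. Libraries with the same number did not deviate together (r from -0.123 to 0.109 over pairs of conditions), so the numbers were taken as names. The replicate block gave 18 calls for IL-4 in low collagen and 11 in high collagen, and 27 on plates. The cause of these changes was not tested.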

Other observations

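A further list of 14 genes of sterol handling, outside the 37, moved both ways. In untreated low collagen 9 were lower and 4 higher than on plates, where 44.3% of all genes were lower and 28.5% higher, so the share that was higher was that of all genes. With IL-4 in low collagen 9 fell and 2 rose (4 and 3 after rescaling), where 40.4% of all genes fell and 13.2% rose. Ch25h, which makes 25-hydroxycholesterol, was at 128 and 121 TPM on untreated plates and 209 and 217 TPM with IL-4. In low collagen it went from 3.27 and 4.04 TPM to 61.7 and 53.5 TPM with IL-4, and in high collagen from 10.6 and 6.04 TPM to 32.2 and 30.6 TPM. Its IL-4 response was 3.66 ± 0.22 in low and 1.84 ± 0.22 in high collagen, and it was the single gene of the list called in the interaction of collagen with IL-4 (-1.81, limma adjusted p = 0.165). Cyp27a1, which makes 27-hydroxycholesterol, was at 19 and 18.3 TPM on untreated plates and 127 and 136 TPM in untreated low collagen. With IL-4 it fell by 1.14 in low collagen, 0.76 in high collagen and 0.91 on plates.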
